A study of Arabidopsis thaliana with 8 samples.

Results

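The comparison sets blue-light-grown Arabidopsis thaliana seedlings that carry mutations in both CRY1 and CRY2, labelled cry1 cry2, against wild-type seedlings, labelled WT. It rests on 4 of the 8 RNA-seq libraries of the series, 2 labelled cry1 cry2 and 2 labelled WT, which were chosen by their genotype labels alone. All seedlings were of the Col-0 ecotype. They were kept at 4 °C for 3 days on diluted MS medium with 1% sucrose, received 12 h of white light and then stayed 4.5 days in blue light before RNA was taken from whole seedlings. The other 4 libraries come from hy5 and agb1 mutants under the same regime. They entered the fit, and hy5 is used below in a direct comparison. The sources used here do not give the cry1, cry2 and hy5 alleles, the blue irradiance or the time of day of harvest. No dark-grown or red-light sample is among the 8, so the light dependence of a value was not measured.

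Cryptochromes are flavin-containing blue-light receptors. In the light CRY1 and CRY2 bind SPA proteins and restrain the COP1 ubiquitin ligase, so that transcription factors such as HY5 accumulate, and they also interact with PIF factors, which promote elongation. In seedlings the pathway is known for stopping hypocotyl growth, opening the cotyledons and turning on the genes of the chloroplast, while CRY2 also takes part in photoperiodic flowering. Mutants that lack both receptors grow long hypocotyls in blue light.

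Library totals were 16375665 and 15794472 counted reads for cry1 cry2, against 23098347 and 19763086 for WT. Values are TMM-scaled CPM, that is, reads relative to the library's scaled total, and they are not divided by gene length, so only the same gene is compared between libraries. Differences are log2 fold changes of cry1 cry2 over WT with a standard error (±, SE), from edgeR quasi-likelihood tests on 2 libraries per genotype with Benjamini-Hochberg adjustment over 20695 tested loci. A gene was called at an adjusted p under 0.05. The labels call the libraries biological replicates and do not say whether they came from separate plates. P-values measure only the spread between replicate libraries of the 4 genotypes, and each gene's spread was drawn toward that of other genes.

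The targeted genes were read first. CRY2 gave 0.166 and 0.227 CPM in cry1 cry2, against 224 and 218 CPM in WT, from 3 and 4 mutant reads (log2 fold change -10.09 ± 0.13, edgeR adjusted p = 1.68e-30). CRY1 gave 82.4 and 78.0 CPM in cry1 cry2, against 203 and 198 CPM in WT (log2 fold change -1.32 ± 0.056, edgeR adjusted p = 2.51e-18). Both genes were thus lower in both mutant libraries, and CRY1 transcript was still present. In the TAIR10.1 annotation CRY2 lies on chromosome 1 at bases 1185512 to 1188696 and CRY1 on chromosome 4 at bases 5723651 to 5727268.

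The loss of reads at CRY2 continued into the adjacent loci. c-NAD-MDH1, which encodes a cytosolic malate dehydrogenase and lies at bases 1188995 to 1191458, had 5 and 8 reads in cry1 cry2, against 19227 and 15484 in WT (log2 fold change -11.12 ± 0.12, edgeR adjusted p = 1.4e-32). AT1G04420, annotated as an oxidoreductase and lying at bases 1191519 to 1193884, had no read in either cry1 cry2 library and 1000 and 853 reads in WT. Set against a floor of 3 reads over both mutant libraries, it was at least 526-fold lower. The next expressed loci kept their reads. AT1G04390 on one side gave 14.5 and 14.6 CPM in cry1 cry2, against 14.9 and 14.98 CPM in WT, and AT1G04430 on the other gave 162 and 158 CPM in cry1 cry2, against 156 and 152 CPM in WT, neither of them called (adjusted p = 0.789 and 0.381 in edgeR). Farther out, AT1G04350 (log2 fold change -2.04 ± 0.08) and AT1G04360 (-0.51) were called lower and CKL13 (0.32) higher. No run of near-empty loci was seen among the 4 expressed neighbours on each side of CRY1. The cry1 cry2 line therefore held almost no reads of 3 consecutive loci, CRY2 among them. The effect of losing the malate dehydrogenase and AT1G04420 transcripts cannot be told apart from that of losing the cryptochromes.

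**Figure D1:**
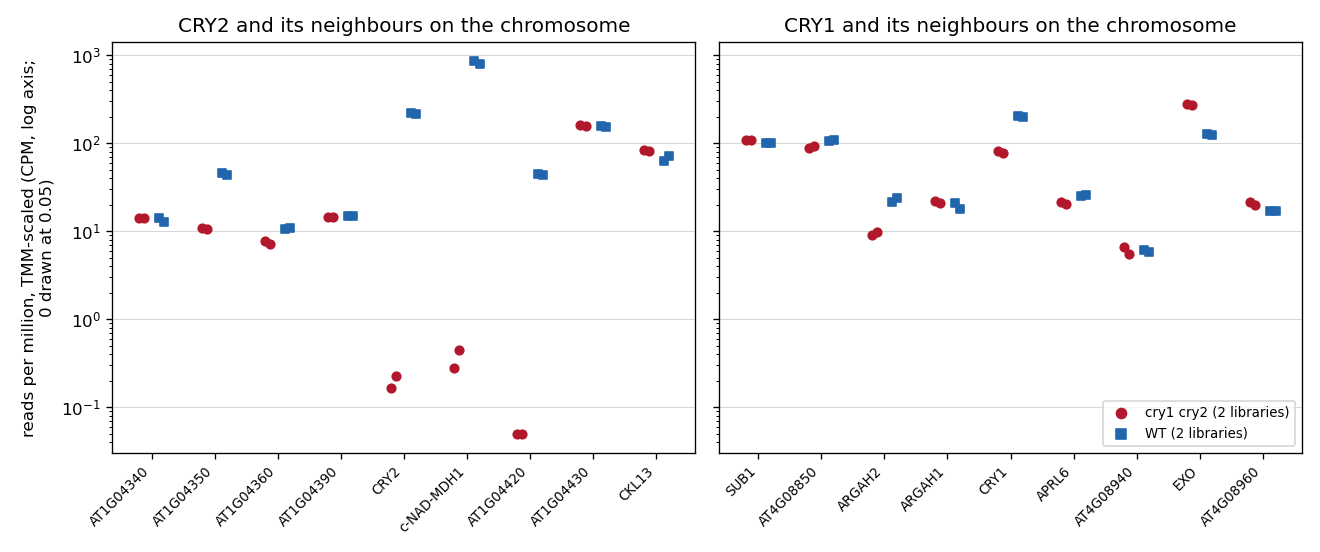
CPM (TMM-scaled, log axis) of CRY2 and CRY1 and of the 4 loci on each side with at least 100 reads over the 4 libraries, in chromosomal order. Circles are the 2 cry1 cry2 libraries and squares the 2 WT libraries, and a value of 0 is drawn at 0.05. CRY2, c-NAD-MDH1 and AT1G04420 lie below 1 CPM in both cry1 cry2 libraries, while CRY1 lies between 78.0 and 82.4 CPM there.

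The difference between the genotypes was broad. edgeR called 10634 of 20695 loci (51.4%), 5292 higher in cry1 cry2 (25.6%) and 5342 lower (25.8%). Most of these differences were small. At least 2-fold higher were 963 loci (4.65%), and at least 2-fold lower were 1476 (7.13%). These percentages are the background against which each group of genes is read below. The median log2 fold change over all tested loci was 0.001. With library sizes alone in place of TMM factors that median moves to 0.18 and the calls split into 8551 higher and 3542 lower, so that 70.7% of calls are increases instead of 49.8%. Directions below are relative to the median gene, and groups whose balance turns under library sizes alone are named as such.

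Among called genes of at least 5 CPM, the 10 largest increases were led by PORA, the dark-type protochlorophyllide oxidoreductase, with 130.1 and 121 CPM in cry1 cry2, against 0.983 and 1.53 CPM in WT (log2 fold change 6.65 ± 0.12, edgeR adjusted p = 1.58e-27). GRF7, a growth-regulating factor, had 37.4 and 35.4 CPM in cry1 cry2, against 0.402 and 0.767 CPM in WT. WSD1, a wax ester synthase, had 10.8 and 10.54 CPM in cry1 cry2, against 0.402 and 0.102 CPM in WT. These genes were below 2 CPM in both WT libraries and above 10 CPM in both cry1 cry2 libraries. HEC2, a basic helix-loop-helix factor linked to shade responses, rose by 5.29 on the log2 scale. AT5G44440, a berberine-bridge-like enzyme, was the most abundantly read of the 10, with 903 and 893 CPM in cry1 cry2, against 37.4 and 35.7 CPM in WT (log2 fold change 4.62 ± 0.064, edgeR adjusted p = 5.99e-30). The seed storage protein gene CRU3 and the oil body gene OLEO3 were also among them, with log2 fold changes of 4.48 and 3.83. The remaining 3 were AT2G47780 (4.57), MRD1 (4.33) and AT3G18530 (4.31).

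The 10 largest decreases began with the 3 loci around CRY2. CIPK20, a calcineurin-B-like-interacting protein kinase, followed with 0 and 0.227 CPM in cry1 cry2, against 87.7 and 93.7 CPM in WT (log2 fold change -9.58 ± 0.19, edgeR adjusted p = 1.95e-26). COR15B, a chloroplast cold-protection protein, had 1 read over both cry1 cry2 libraries and 675 reads in WT, so that it was 575-fold lower with a 95% counting interval of 103 to 22700. AT2G15020 likewise had 1 read in cry1 cry2 and 945 in WT, 805-fold lower with an interval of 144 to 31800. AT3G28220 had 3 reads in cry1 cry2 and 1054 in WT, 299-fold lower with an interval of 102 to 1450. These sizes rest on 1 to 3 mutant reads, and their intervals are wide. THI2.2, a thionin, gave 0 and 0.227 CPM in cry1 cry2, against 38.04 and 38.9 CPM in WT. AT1G70820, annotated as a putative phosphoglucomutase, gave 0.609 and 0.567 CPM in cry1 cry2, against 135 and 149 CPM in WT (log2 fold change -7.90 ± 0.12). FBA5, a fructose-bisphosphate aldolase, gave 1.66 and 2.61 CPM in cry1 cry2, against 369 and 345 CPM in WT (log2 fold change -7.38 ± 0.10, edgeR adjusted p = 5.65e-30). Genes entered these lists of 10 only if the genotypes did not overlap.

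Tissue markers moved between the genotypes. All 7 tested leaf and green-shoot markers were lower in cry1 cry2, with a summed level of 4615 and 4467 CPM in cry1 cry2, against 32915 and 30776 CPM in WT. Of 16 tested root markers 10 were called higher and none lower, with sums of 8485 and 8257 CPM in cry1 cry2, against 4922 and 4898 CPM in WT. Of the root markers not called, 4 were lower in both cry1 cry2 libraries than in both WT libraries. The same held, called or not, for 7702 of all 20695 tested loci. The members that rose include all 5 CASP genes of the endodermal barrier, while the root hair genes RHD2 and EXPA7 and the root stem cell genes PLT1 and PLT2 were not called. Of 15 tested seed and embryo markers 14 rose and none fell, or 5 rose when at least 5 CPM was required, and their sum was 88.0 and 114 CPM in cry1 cry2, against 17.0 and 19.1 CPM in WT. The sum for guard-cell markers was 46.1 and 48.1 CPM in cry1 cry2, against 65.5 and 59.6 CPM in WT, with 2 of 9 higher and 5 lower. Among the markers too low to test, NRT2:1 had 0 and 1 reads in cry1 cry2 and 0 in both WT libraries. In whole seedlings, fewer cells of a type and less RNA per cell cannot be told apart. The part that these shifts play in the gene groups below was not tested.

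Genes of the photosynthetic apparatus were lower in cry1 cry2 almost throughout. All 42 tested nuclear photosystem and electron transport subunits fell, 39 of them at least 2-fold, with a median log2 fold change of -2.17. Their log2 fold changes ran from -3.73 at FNR2 to -0.39 at FD1, a ferredoxin. FNR2, which passes electrons to NADP at the end of the light reactions, had 42.4 and 40.9 CPM in cry1 cry2, against 546 and 563 CPM in WT (log2 fold change -3.73 ± 0.061, edgeR adjusted p = 2.45e-28). PSAO, a photosystem I subunit, had 172 and 169 CPM in cry1 cry2, against 1369 and 1327 CPM in WT (log2 fold change -2.98 ± 0.057), and PSAN, another, had 166 and 156 CPM in cry1 cry2, against 1259 and 1223 CPM in WT (log2 fold change -2.95 ± 0.057).

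The light-harvesting antenna proteins, which bind chlorophyll around both photosystems, fell in 19 of 20 members, 18 of them at least 2-fold, with a median of -2.65. Their summed level was 12785 and 11857 CPM in cry1 cry2, against 85735 and 79856 CPM in WT. CAB3 showed the largest decrease, with 142 and 129.8 CPM in cry1 cry2, against 3740.3 and 3509 CPM in WT (log2 fold change -4.73 ± 0.061, edgeR adjusted p = 1.68e-30). CAB1, CAB2 and CAB3 are near-identical copies between which reads may be split, so their separate values are uncertain, although all 3 fell. LHCB2.1 gave 126 and 119 CPM in cry1 cry2, against 1936 and 1756 CPM in WT and LHCB2.3 gave 26.1 and 26.5 CPM in cry1 cry2, against 353 and 365 CPM in WT. LHCB4.3 went the other way, with 9.80 and 8.90 CPM in cry1 cry2, against 6.66 and 6.95 CPM in WT (log2 fold change 0.46 ± 0.13, edgeR adjusted p = 0.00322). It is the exception among the 20, and without cry1 cry2 replicate 1 it was not called (log2 fold change 0.38).

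Carbon fixation followed the same direction. Of 20 tested genes of Rubisco and the Calvin-Benson cycle 19 fell, with a median of -1.87. RCA, the activase that keeps Rubisco open, had 366 and 358 CPM in cry1 cry2, against 2945 and 2827 CPM in WT (log2 fold change -3.00 ± 0.052, edgeR adjusted p = 1.24e-27). FBA1, a plastid aldolase, had 39.2 and 39.6 CPM in cry1 cry2, against 308 and 300.1 CPM in WT (log2 fold change -2.95 ± 0.061), and CP12-2, a small regulator of the cycle, had 5.26 and 6.58 CPM in cry1 cry2, against 47.2 and 43.4 CPM in WT. Photorespiration, which salvages the product of Rubisco's oxygenase reaction, fell in 9 of 10 genes (median -1.44). SHM1, the mitochondrial serine hydroxymethyltransferase, gave 99.3 and 102 CPM in cry1 cry2, against 784 and 772 CPM in WT (log2 fold change -2.95 ± 0.057). The leaf marker list above shares members with these groups, among them LHCB2.1, CAB1 and RCA, and is no separate measurement of them. RBCS1A, PETE2 and GLDP1 were also among the symbols given for both.

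Chlorophyll synthesis genes fell at most steps, while the step that reduces protochlorophyllide was divided. Of 25 tested tetrapyrrole genes 20 fell and 2 rose (median -0.68). CRD1, the cyclase that closes the fifth ring, had 186 and 183 CPM in cry1 cry2, against 877 and 863 CPM in WT (log2 fold change -2.24 ± 0.053, edgeR adjusted p = 1.34e-24). GUN5, the magnesium chelatase subunit that begins the chlorophyll branch, had 216 and 207 CPM in cry1 cry2, against 692 and 671 CPM in WT (log2 fold change -1.69 ± 0.059). The 3 light-requiring protochlorophyllide oxidoreductases split: PORA and PORB rose while POR C fell. PORB gave 381 and 388 CPM in cry1 cry2, against 184 and 185 CPM in WT (log2 fold change 1.06 ± 0.052, edgeR adjusted p = 6.79e-17). POR C gave 11.3 and 11.7 CPM in cry1 cry2, against 32.1 and 32.5 CPM in WT (log2 fold change -1.49 ± 0.087, edgeR adjusted p = 5.02e-15). PORA is known as the form abundant in dark-grown seedlings, and here its level in cry1 cry2 was the largest rise among the chlorophyll genes.

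Promoter windows of CRD1, which fell, and PORA, which rose, are shown because these genes moved in opposite directions within a pathway and hold letter strings searched for below. Each runs from 250 bases before to 50 bases after the annotated gene start in RefSeq TAIR10.1. For CRD1 (chr3:21076255-21076554, plus strand) the capitals mark the G-box CACGTG, 52 bases before the start. For PORA (chr5:21992765-21993064, minus strand) they mark the evening element AAAATATCT, 180 bases before the start, and CTTATC, the reverse complement of the I-box GATAAG, 94 bases before it.
CRD1: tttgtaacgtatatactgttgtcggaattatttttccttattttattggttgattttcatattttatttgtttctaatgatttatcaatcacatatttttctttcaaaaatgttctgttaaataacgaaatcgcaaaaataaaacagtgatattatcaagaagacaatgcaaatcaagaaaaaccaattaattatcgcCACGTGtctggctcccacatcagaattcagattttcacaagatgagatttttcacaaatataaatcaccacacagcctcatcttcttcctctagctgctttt
PORA: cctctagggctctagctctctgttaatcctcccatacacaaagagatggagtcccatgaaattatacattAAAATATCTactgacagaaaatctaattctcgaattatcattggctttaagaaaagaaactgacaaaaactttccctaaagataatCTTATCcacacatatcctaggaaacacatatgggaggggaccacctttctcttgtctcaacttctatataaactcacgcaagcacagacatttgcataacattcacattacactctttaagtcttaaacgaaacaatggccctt

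**Figure D2:**
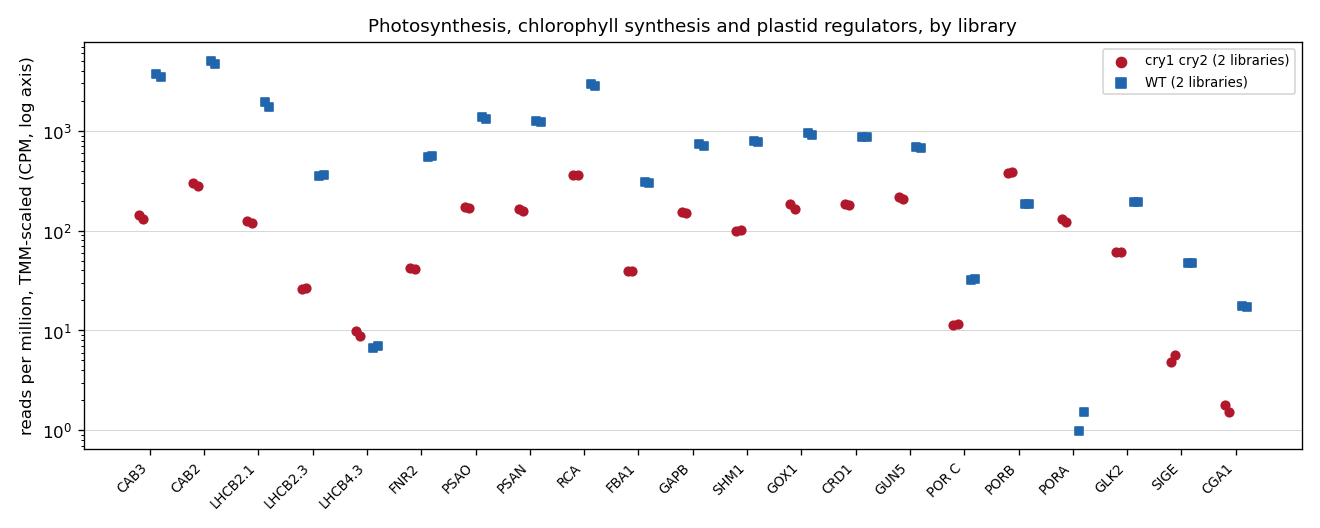
CPM (TMM-scaled, log axis) of named genes of photosynthesis, chlorophyll synthesis and plastid regulation. Circles are the 2 cry1 cry2 libraries and squares the 2 WT libraries of each gene. The circles lie below the squares for every gene drawn except LHCB4.3, PORB and PORA.

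Regulators of plastid development fell throughout, 16 of 16 tested with a median of -1.19. CGA1, a GATA factor that promotes chloroplast development, had 1.77 and 1.53 CPM in cry1 cry2, against 17.8 and 17.3 CPM in WT (log2 fold change -3.40 ± 0.15, edgeR adjusted p = 8.76e-18). SIGE, a sigma factor for the plastid RNA polymerase known for its response to blue light, had 4.82 and 5.67 CPM in cry1 cry2, against 47.5 and 47.6 CPM in WT (log2 fold change -3.18 ± 0.097, edgeR adjusted p = 7.13e-22). GLK2, a direct activator of photosynthesis genes, had 61.8 and 61.2 CPM in cry1 cry2, against 195 and 193 CPM in WT (log2 fold change -1.66 ± 0.057), and its homologue GPRI1, also known as GLK1, had 18.4 and 21.0 CPM in cry1 cry2, against 56.8 and 48.2 CPM in WT. GUN1, which signals from plastid to nucleus, fell least in the list (log2 fold change -0.37 ± 0.054).

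The plastid genome's own genes were also mostly lower. Of 88 tested plastid-encoded loci 64 fell and 3 rose, with a median of -0.46, and library sizes alone gave 45 and 7. Without WT replicate 1 the count of decreases was 41, and DESeq2 gave 35. Their summed level was 15382 and 15033 CPM in cry1 cry2, against 25598 and 23271 CPM in WT. Plastid loci took 1.7% and 1.68% of counted reads in cry1 cry2, against 2.48% and 2.3% in WT. The 2 agb1 libraries held 2.1% and 3.0%, so this share also varied within a genotype. The part that such a library-wide shift plays in the counts of plastid loci was not tested. The largest decrease was at ATCG00300, with 20.3 and 22.2 CPM in cry1 cry2, against 86.5 and 70.9 CPM in WT (log2 fold change -1.89 ± 0.14). ATCG00220, ATCG00270 and ATCG00280 fell by 1.46, 1.39 and 1.36 on the log2 scale. In the mitochondrial genome 23 of 56 tested loci were higher and 1 was lower. That count of 23 was 12 without WT replicate 2, 14 without cry1 cry2 replicate 1 and 9 with DESeq2. Sums for the mitochondrial loci were 490.4 and 474 CPM in cry1 cry2, against 384 and 315 CPM in WT. Of 11 tested genes annotated as plastid ribosomal proteins 7 fell and 1 rose. The 301 ribosomal protein genes annotated as neither plastid nor mitochondrial had a median of only -0.22. Of these, 151 were lower, 16 at least 2-fold, and 10 were higher. The classes follow the wording of the annotation, so the 301 may include plastid proteins that it does not name as such. With library sizes alone those 301 gave 66 lower and 47 higher, so their balance depends on the scaling.

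Pigments and photoprotection showed mixed lists. Carotenoid genes fell in 17 of 19 cases (median -0.67), led by NCED4, a carotenoid cleavage enzyme, with 12.1 and 12.1 CPM in cry1 cry2, against 90.5 and 90.8 CPM in WT (log2 fold change -2.91 ± 0.073). NPQ1 and ABA1, which interconvert violaxanthin and zeaxanthin, fell, with log2 fold changes of -2.48 and -2.42. Of 18 tested early light-induced, photoprotective and antioxidant genes 11 fell and 4 rose. STN7, the kinase of antenna state transitions, gave 27.6 and 29.9 CPM in cry1 cry2, against 126 and 132 CPM in WT. ELIP1, an early light-induced protein, rose at a low level, with 6.92 and 5.61 CPM in cry1 cry2, against 2.28 and 1.99 CPM in WT (log2 fold change 1.55 ± 0.21). The cytosolic antioxidant enzymes APX1 and CSD1 also rose, with log2 fold changes of 0.58 ± 0.056 and 0.54 ± 0.057.

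Flavonoid genes did not move together: 7 of 16 tested fell and 6 rose, and the sign of their median depended on the processing. The list holds 26 loci, and those too low to test include DFR, LDOX, UF3GT and TT8. It therefore does not cover anthocyanin synthesis whole. F3H, an early step of flavonol and anthocyanin synthesis, gave 1.72 and 1.53 CPM in cry1 cry2, against 10.06 and 10.48 CPM in WT (log2 fold change -2.65 ± 0.18, edgeR adjusted p = 2.24e-13). MYBL2, a repressor of anthocyanin synthesis, fell as well, with 25.5 and 20.5 CPM in cry1 cry2, against 241 and 231 CPM in WT (log2 fold change -3.36 ± 0.073). In the general phenylpropanoid list 14 of 18 rose and 3 fell (median 0.41). PAL2 and PAL4 encode the same first enzyme and went in opposite directions. PAL2 gave 51.5 and 56.9 CPM in cry1 cry2, against 152 and 144 CPM in WT (log2 fold change -1.45 ± 0.062), and PAL4 gave 151 and 146 CPM in cry1 cry2, against 87.2 and 79.8 CPM in WT (log2 fold change 0.83 ± 0.057).

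Light receptors other than the mutated pair were mostly lower. Of 14 photoreceptor genes 10 fell, including CRY1 and CRY2 themselves, 1 rose and 3 were not called (median -0.58). FKF1, a blue-light receptor of the photoperiod pathway, gave 14.8 and 15.3 CPM in cry1 cry2, against 70.6 and 68.1 CPM in WT (log2 fold change -2.20 ± 0.073, edgeR adjusted p = 6.26e-21). CRY3, a photolyase-like cryptochrome of the organelles, gave 4.21 and 5.67 CPM in cry1 cry2, against 18.4 and 18.7 CPM in WT (log2 fold change -1.91 ± 0.13). The gene that rose was PHYA, the phytochrome that is abundant in dark-grown seedlings, with 1143 and 1185 CPM in cry1 cry2, against 722 and 732 CPM in WT (log2 fold change 0.68 ± 0.05, edgeR adjusted p = 1.26e-12). PHOT1, the phototropism receptor, was not called (log2 fold change 0.083 ± 0.052), but was with library sizes alone (0.26). Of 11 genes for DNA photorepair and ultraviolet responses 7 fell and none rose, among them the photolyase UVR3 with 20.5 and 21.3 CPM in cry1 cry2, against 58.7 and 57.9 CPM in WT (log2 fold change -1.48 ± 0.076).

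In the list of cryptochrome inhibitors, COP1, SPA and DET1 complexes, which also holds the cryptochrome-interacting factor CIB1, 8 of 13 genes fell and 1 rose, and library sizes alone gave 5 and 2. SPA1, a partner of COP1, had 43.4 and 43.8 CPM in cry1 cry2, against 108 and 110.1 CPM in WT (log2 fold change -1.32 ± 0.068, edgeR adjusted p = 2.67e-16). COP1 itself had 33.2 and 35.1 CPM in cry1 cry2, against 40.2 and 40.8 CPM in WT (log2 fold change -0.24 ± 0.073, edgeR adjusted p = 0.00621), a call that was lost with library sizes alone (-0.063, edgeR adjusted p = 0.494). The gene that rose was CIB1, with 32.9 and 36.0 CPM in cry1 cry2, against 30.8 and 27.6 CPM in WT (log2 fold change 0.24 ± 0.077, edgeR adjusted p = 0.0113), and its call was lost with DESeq2, without WT replicate 2 and without cry1 cry2 replicate 2. RUP2, a repressor of ultraviolet-B signalling, had 4.26 and 3.97 CPM in cry1 cry2, against 10.4 and 10.3 CPM in WT.

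Transcription factors of light signalling moved in both directions. Of 25 tested 15 fell and 6 rose (median -0.55). HY5, the central activator of photomorphogenesis, did not pass the test at the transcript level, with 16.3 and 18.9 CPM in cry1 cry2, against 15.9 and 14.9 CPM in WT (log2 fold change 0.19 ± 0.096, edgeR adjusted p = 0.1), whereas library sizes alone called it higher (0.37, edgeR adjusted p = 0.00184). Its homologue HYH fell, with 3.99 and 4.59 CPM in cry1 cry2, against 12.2 and 11.4 CPM in WT (log2 fold change -1.47 ± 0.15, edgeR adjusted p = 1.26e-09). Several B-box factors fell. BBX29 gave 1.55 and 1.76 CPM in cry1 cry2, against 11 and 11.6 CPM in WT, STH gave 7.25 and 7.09 CPM in cry1 cry2, against 37.0 and 35.4 CPM in WT, and LZF1, also known as BBX22, gave 18.6 and 15.4 CPM in cry1 cry2, against 73.4 and 74.8 CPM in WT (log2 fold change -2.12 ± 0.076, edgeR adjusted p = 3.1e-20). BBX28 showed no call, at 57.1 and 56.0 CPM in cry1 cry2, against 56.9 and 56.9 CPM in WT, though library sizes alone gave one (log2 fold change 0.17), and BZS1 rose (log2 fold change 0.70 ± 0.083). bbx23, noticed after its values were seen, had 75 and 72 reads in cry1 cry2 and 0 in both WT libraries, at least 57.6-fold higher against a floor of 3 reads over both WT libraries. Of the PIF genes, PIF3 rose (0.62 ± 0.066), while PIF4 (-0.56 ± 0.057) and PIL6, also known as PIF5 (-0.58 ± 0.059), fell.

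Genes that shade and PIF factors are known to induce rose in 15 of 25 cases and fell in 4 (median 0.57), beside 25.6% and 25.8% of all tested loci. HEC2 gave 16.6 and 15.6 CPM in cry1 cry2, against 0.313 and 0.511 CPM in WT (log2 fold change 5.29 ± 0.22, edgeR adjusted p = 1.7e-18), and HEC1 gave 39.3 and 39.1 CPM in cry1 cry2, against 6.97 and 7.67 CPM in WT (log2 fold change 2.42 ± 0.093). IAA19, an auxin-induced repressor active in elongating hypocotyls, gave 124 and 123 CPM in cry1 cry2, against 24.99 and 25.5 CPM in WT (log2 fold change 2.29 ± 0.063, edgeR adjusted p = 4.91e-23). KDR and PRE1, small helix-loop-helix proteins that promote elongation, rose by 1.68 and 1.57 on the log2 scale. Not every shade gene followed: HB-2, also known as ATHB2, was not called (54.5 and 52.0 CPM in cry1 cry2, against 52.8 and 50.3 CPM in WT), but was with library sizes alone (log2 fold change 0.23). IAA29 fell, with 28.2 and 25.1 CPM in cry1 cry2, against 63.7 and 65.6 CPM in WT (log2 fold change -1.28 ± 0.07, edgeR adjusted p = 1.01e-15), as did HFR1, an inhibitor of PIF factors, with 61.0 and 61.3 CPM in cry1 cry2, against 126 and 132 CPM in WT (log2 fold change -1.08 ± 0.059).

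The IAA19 window (chr3:5263751-5264050, plus strand, RefSeq TAIR10.1, same window as above) is shown as that of a shade-associated gene that rose and holds letter strings searched for below. Capitals mark CATGTG, the reverse complement of the PIF-bound letters CACATG, 177 bases before the start, and the G-box CACGTG, 70 bases before it. Most genes of its list lack them. Of 25 shade and PIF-responsive windows 7 held CACATG (28.0%) and 3 the G-box (12.0%), against 13.1% and 8.8% of all windows.
IAA19: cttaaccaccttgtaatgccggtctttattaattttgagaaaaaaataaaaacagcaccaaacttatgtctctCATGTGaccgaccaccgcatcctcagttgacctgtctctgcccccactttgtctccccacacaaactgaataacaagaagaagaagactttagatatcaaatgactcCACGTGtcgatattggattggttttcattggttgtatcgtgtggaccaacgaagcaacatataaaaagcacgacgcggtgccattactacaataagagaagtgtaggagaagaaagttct

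Most expansins and fewer of the other wall genes were higher in cry1 cry2. Expansins, which loosen walls, rose in 18 of 23 cases and fell in 2 (median 0.79). EXPA4 had 111 and 104 CPM in cry1 cry2, against 30.4 and 29.1 CPM in WT (log2 fold change 1.85 ± 0.068, edgeR adjusted p = 6.21e-20), whereas EXPA1 had 68.3 and 68.5 CPM in cry1 cry2, against 114 and 101 CPM in WT (log2 fold change -0.65 ± 0.064). Xyloglucan endotransglucosylase/hydrolases, which cut and rejoin wall polymers, rose in 14 of 30 cases, fell in 6 and were not called in 10. XTH17 and XTH19 rose by similar amounts. XTH17 gave 623 and 600.4 CPM in cry1 cry2, against 159 and 149 CPM in WT (log2 fold change 1.99 ± 0.055, edgeR adjusted p = 6.6e-23) and XTH19 gave 169 and 167 CPM in cry1 cry2, against 43.8 and 45.5 CPM in WT (log2 fold change 1.91 ± 0.059). XTH6 was the opposite extreme of the family, with 4.98 and 5.50 CPM in cry1 cry2, against 162 and 156 CPM in WT (log2 fold change -4.92 ± 0.088, edgeR adjusted p = 1.7e-27). Of 16 cellulose synthesis genes 8 rose and none fell, all by less than 2-fold, and library sizes alone gave 15 increases. Aquaporins, the water channels, rose in 21 of 26 cases and none fell (median 0.55). The root-marker aquaporin PIP2;4 had 354 and 324 CPM in cry1 cry2, against 94.3 and 85.2 CPM in WT (log2 fold change 1.92 ± 0.061), and the seed-type BETA-TIP had 33.1 and 35.8 CPM in cry1 cry2, against 6.12 and 6.08 CPM in WT.

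Increases outnumbered decreases in the hormone lists, and many members were not called. In the gibberellin list 9 of 23 rose and 4 fell. GA20OX1 and GA3OX1, successive enzymes that make active gibberellin, were both higher. GA20OX1 had 11.2 and 11.1 CPM in cry1 cry2, against 1.56 and 1.74 CPM in WT (log2 fold change 2.75 ± 0.18, edgeR adjusted p = 9.64e-14), and GA3OX1 had 11.7 and 12.9 CPM in cry1 cry2, against 2.55 and 1.79 CPM in WT (log2 fold change 2.49 ± 0.17, edgeR adjusted p = 1.87e-13). GASA4, a gibberellin-responsive peptide, had 986 and 1021 CPM in cry1 cry2, against 219 and 210.4 CPM in WT (log2 fold change 2.22 ± 0.053), and the repressor RGL1 had 40.8 and 40.9 CPM in cry1 cry2, against 12.0 and 10.53 CPM in WT. AT5G14920 and GASA1 of the same peptide family fell, by 1.18 and 0.48 on the log2 scale.

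Auxin genes showed modest medians with a few strong members. Of 27 Aux/IAA repressors 14 rose and 5 fell, of 30 SAUR growth genes 18 rose and 5 fell, and of 33 genes for auxin synthesis, conjugation and transport 18 rose and 6 fell. IAA20 gave 16.01 and 19.2 CPM in cry1 cry2, against 2.5 and 2.86 CPM in WT (log2 fold change 2.71 ± 0.16), and IAA6 gave 23.5 and 24.1 CPM in cry1 cry2, against 5.01 and 5.01 CPM in WT (log2 fold change 2.25 ± 0.14, edgeR adjusted p = 2.65e-14). The genes around SAUR19, which drive hypocotyl elongation, are near-identical copies. SAUR19, SAUR22, SAUR23 and SAUR24 rose by less than 2-fold, for example SAUR19 with 14.9 and 16.9 CPM in cry1 cry2, against 9.12 and 10.3 CPM in WT, and SAUR20 was not called. By contrast AT4G38840 and AT4G38860, SAUR genes that lie close together, fell by 1.42 and 1.28 on the log2 scale. YUC8, an auxin synthesis enzyme known as a PIF target, had 32.7 and 31.6 CPM in cry1 cry2, against 20.3 and 21.0 CPM in WT (log2 fold change 0.64 ± 0.08, edgeR adjusted p = 7.09e-08). In its list of synthesis, conjugation and transport genes 2 rose and 3 fell at least 2-fold. Log2 fold changes there ran from -3.73 to 1.55.

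Ethylene genes rose in 12 of 22 cases and fell in 2 (median 0.35). ACS5, which makes the ethylene precursor, had 18.3 and 15.8 CPM in cry1 cry2, against 3.75 and 2.66 CPM in WT (log2 fold change 2.39 ± 0.15, edgeR adjusted p = 2.31e-14). HLS1, required for the apical hook of dark-grown seedlings, had 27.9 and 27.9 CPM in cry1 cry2, against 5.41 and 6.80 CPM in WT (log2 fold change 2.2 ± 0.12, edgeR adjusted p = 1.06e-15). Cytokinin, brassinosteroid and abscisic acid lists rose in 14 of 32, 16 of 27 and 14 of 27 cases, with 4, 7 and 6 lower. The cytokinin count of increases was 8 without cry1 cry2 replicate 1, 9 without either WT library and 5 with DESeq2. LOG5, a cytokinin-activating enzyme, rose by 1.73 on the log2 scale, and BR6OX1, a late brassinosteroid synthesis enzyme, by 1.22.

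**Figure D3:**
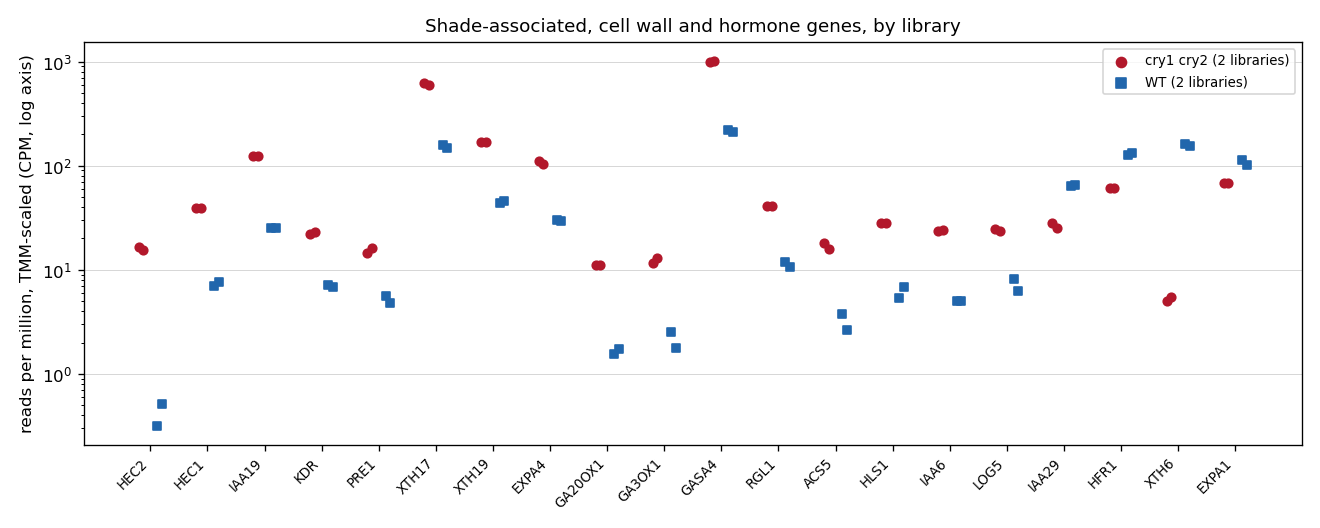
CPM (TMM-scaled, log axis) of named shade-associated, cell wall and hormone genes. Circles are the 2 cry1 cry2 libraries and squares the 2 WT libraries of each gene. The first 16 genes from the left lie higher in cry1 cry2 and the last 4, IAA29, HFR1, XTH6 and EXPA1, lie lower, with no overlap between the genotypes.

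Clock transcripts were lower in 17 of 22 tested genes, and 3 rose (median -0.80). The morning factors CCA1 and LHY, repressors at the core of the loop, fell together. CCA1 had 12.9 and 13.9 CPM in cry1 cry2, against 60.0 and 62.5 CPM in WT (log2 fold change -2.19 ± 0.086, edgeR adjusted p = 3.44e-19), and LHY had 9.36 and 7.88 CPM in cry1 cry2, against 50.3 and 49.6 CPM in WT (log2 fold change -2.53 ± 0.088, edgeR adjusted p = 1.49e-20). The pseudo-response regulators, which act through the day, fell, with log2 fold changes of -2.03 (PRR9), -1.75 (PRR7), -2.45 (PRR5) and -0.44 (TOC1), while PRR3 was not called except with library sizes alone (0.31). PRR5 gave 19.2 and 19.5 CPM in cry1 cry2, against 106 and 105 CPM in WT. In the evening complex ELF4 fell, with 13.1 and 12.6 CPM in cry1 cry2, against 45.5 and 45.8 CPM in WT (log2 fold change -1.83 ± 0.088), while ELF3 rose, with 107 and 107 CPM in cry1 cry2, against 65.5 and 66.8 CPM in WT (log2 fold change 0.69 ± 0.057), and PCL1, also known as LUX, rose by 0.23. GI, which bridges clock and flowering, was not called (log2 fold change -0.11 ± 0.056, and 0.074 with library sizes alone). Only 1 seedling age is labelled, so a change of level and a shift of phase cannot be told apart.

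The CCA1 window (chr2:19245341-19245640, plus strand, RefSeq TAIR10.1, same window as above) is shown as that of a core clock gene with a G-box, marked in capitals 193 bases before the start.
CCA1: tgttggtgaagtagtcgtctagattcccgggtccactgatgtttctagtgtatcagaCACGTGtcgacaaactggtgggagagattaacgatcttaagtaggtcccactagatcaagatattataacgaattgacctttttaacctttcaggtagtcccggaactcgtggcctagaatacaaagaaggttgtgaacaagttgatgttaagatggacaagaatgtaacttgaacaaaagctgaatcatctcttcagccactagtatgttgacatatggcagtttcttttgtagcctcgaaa

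**Figure D4:**
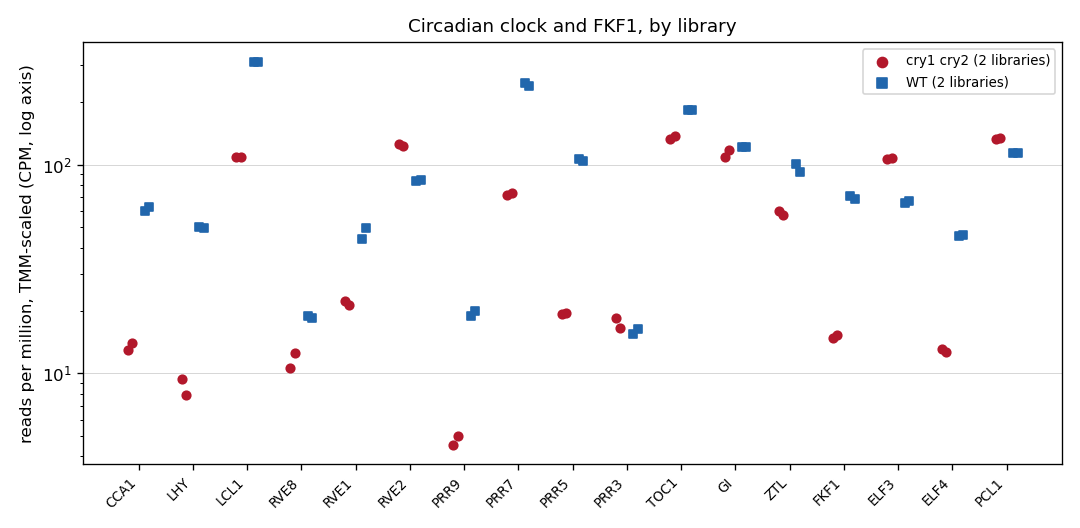
CPM (TMM-scaled, log axis) of named clock genes and FKF1. Circles are the 2 cry1 cry2 libraries and squares the 2 WT libraries of each gene. Morning and daytime factors such as CCA1, LHY, PRR9 and PRR5 lie lower in cry1 cry2, while RVE2, ELF3 and PCL1 lie higher.

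In the photoperiod and flowering list 10 of 19 fell and 2 rose (median -0.17, which turned to 0.013 with library sizes alone). COL2, a CONSTANS relative, gave 8.31 and 8.28 CPM in cry1 cry2, against 33.9 and 33.3 CPM in WT (log2 fold change -2.02 ± 0.10), and CDF3, a repressor that FKF1 helps to remove, gave 29.6 and 26.9 CPM in cry1 cry2, against 81.7 and 84.1 CPM in WT (log2 fold change -1.55 ± 0.067).

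Cold-regulated genes were mostly lower, and the labels give all seedlings the same temperature regime. Of 21 tested 14 fell and 4 rose (median -1.16). CBF2, a master regulator of cold acclimation, gave 2.49 and 3.23 CPM in cry1 cry2, against 11.5 and 9.25 CPM in WT (log2 fold change -1.86 ± 0.16, edgeR adjusted p = 2.83e-11), and its targets KIN1 and KIN2, near-identical neighbours, fell, with log2 fold changes of -2.09 and -2.97. KIN2 gave 13.2 and 14.7 CPM in cry1 cry2, against 108 and 111 CPM in WT. The dehydrins ERD10 and COR47 did not follow, with log2 fold changes of 0.40 ± 0.06 and -0.021 ± 0.053, the second not called, although library sizes alone called it higher (0.16). Heat and unfolded-protein genes rose in 10 of 18 cases, HSP70 by 0.75 ± 0.068.

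Salicylate and immunity genes rose in 5 and fell in 4 of 21 cases, shares near those over all tested loci (25.6% and 25.8%), and library sizes alone gave 9 and 1. The jasmonate list had 10 higher and 8 lower of 27. AOC2, a plastid enzyme of jasmonate synthesis, gave 2.44 and 2.89 CPM in cry1 cry2, against 57.2 and 65.1 CPM in WT (log2 fold change -4.52 ± 0.11, edgeR adjusted p = 6.74e-24), and LOX2, which acts before it, gave 1.55 and 0.907 CPM in cry1 cry2, against 9.83 and 10.7 CPM in WT (log2 fold change -3.05 ± 0.19). VSP2, a jasmonate-induced storage protein, rose, with 8.75 and 9.47 CPM in cry1 cry2, against 1.56 and 1.84 CPM in WT (log2 fold change 2.42 ± 0.18). Rapid stress factors fell in 11 and rose in 3 of 27 cases, and library sizes alone gave 10 and 7. Their median was -0.38, and -0.13 without WT replicate 1. STZ, a zinc-finger repressor, had 6.48 and 6.07 CPM in cry1 cry2, against 16.6 and 16.3 CPM in WT (log2 fold change -1.39 ± 0.15).

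Glucosinolates are sulfur-rich defence compounds of the cabbage family. Genes of the aliphatic branch fell in 11 of 15 cases (median -0.97) and rose in 2, with 6 decreases when at least 5 CPM was required, and its activator MYB28 had 4.26 and 4.2 CPM in cry1 cry2, against 12.4 and 11.4 CPM in WT (log2 fold change -1.50 ± 0.14, edgeR adjusted p = 1.19e-10). In a list that joins indole glucosinolate genes and the myrosinase system 16 of 26 rose and 6 fell (median 0.39), and the difference between the lists was not tested. The myrosinases TGG1 and TGG2, leaf enzymes that activate glucosinolates, were among those that fell, TGG1 with 394 and 421 CPM in cry1 cry2, against 1051 and 1058 CPM in WT (log2 fold change -1.37 ± 0.059).

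Starch genes were mostly lower. Of 32 starch and sucrose genes 19 fell and 9 rose (median -0.78). SEX1, which starts starch breakdown, had 79.4 and 82.0 CPM in cry1 cry2, against 449 and 491 CPM in WT (log2 fold change -2.54 ± 0.06, edgeR adjusted p = 1.54e-24), and GBSS1, which makes amylose, had 4.15 and 3.74 CPM in cry1 cry2, against 26.5 and 25.6 CPM in WT (log2 fold change -2.72 ± 0.11). Other members rose. GPT2, a glucose phosphate transporter, had 10.4 and 8.79 CPM in cry1 cry2, against 3.04 and 3.2 CPM in WT (log2 fold change 1.63 ± 0.17), and APL3, a subunit of the starch precursor enzyme, had 7.42 and 8.05 CPM in cry1 cry2, against 3.04 and 2.86 CPM in WT. Carbon starvation and dark-induced genes had 8 higher and 12 lower of 25, a balance that library sizes alone turned to 11 and 8. ASN2, an asparagine synthetase, fell, with 13.3 and 14.8 CPM in cry1 cry2, against 149 and 148 CPM in WT (log2 fold change -3.40 ± 0.071), while DIN2, a dark-inducible glucosidase, rose with 68.6 and 69.7 CPM in cry1 cry2, against 26.6 and 27.1 CPM in WT (log2 fold change 1.37 ± 0.075).

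Genes of mineral nutrition moved in both directions. In the nitrate list 10 of 24 rose and 9 fell (median -0.077, which turned to 0.10 with library sizes alone). NIA2, the main nitrate reductase, had 567 and 553 CPM in cry1 cry2, against 2153 and 2046 CPM in WT (log2 fold change -1.91 ± 0.056, edgeR adjusted p = 2.43e-22). GS2, the plastid glutamine synthetase, had 377 and 385 CPM in cry1 cry2, against 1314 and 1285 CPM in WT (log2 fold change -1.77 ± 0.05), whereas cytosolic GLN1.3 rose by 0.97 on the log2 scale. Iron and copper genes fell in 15 and rose in 7 of 33 cases, with 12 increases under library sizes alone. FRO6 and FRO7 are adjacent ferric reductases, FRO7 acting at the chloroplast. FRO6 had 0.554 and 0.737 CPM in cry1 cry2, against 52.0 and 55.3 CPM in WT (log2 fold change -6.36 ± 0.15, edgeR adjusted p = 1.53e-24), and FRO7 had 3.77 and 4.54 CPM in cry1 cry2, against 39.8 and 44.7 CPM in WT (log2 fold change -3.35 ± 0.12). FER1, the iron store ferritin, rose, with 143 and 131 CPM in cry1 cry2, against 56.9 and 53.4 CPM in WT (log2 fold change 1.31 ± 0.063). Phosphate starvation genes rose in 10 of 16 cases and sulfate genes in 10 of 21, of which DESeq2 called 6.

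Proliferation and surface genes close the survey. Few DNA replication genes were called, 1 higher and 1 lower of 29 (median -0.041), while 10 of 32 cell division genes rose and 1 fell. With library sizes alone those counts of increases became 6 and 20. SIM, an inhibitor that promotes endoreduplication, rose with 43.5 and 52.7 CPM in cry1 cry2, against 22.1 and 20.7 CPM in WT (log2 fold change 1.17 ± 0.083), and CYCD3;2 fell with 22.2 and 23.1 CPM in cry1 cry2, against 42.4 and 44.9 CPM in WT (log2 fold change -0.95 ± 0.074). In the wax and suberin list 20 of 36 rose and 11 fell. CER1, which makes wax alkanes, had 77.1 and 79.2 CPM in cry1 cry2, against 10.6 and 9.05 CPM in WT (log2 fold change 2.99 ± 0.082, edgeR adjusted p = 4.82e-23), whereas the suberin genes FACT and CYP86B1 fell, with log2 fold changes of -1.13 and -0.94. In the root hair and Casparian strip list 10 of 23 rose. The increases lay in the Casparian strip genes, such as CASP5 with 144 and 133 CPM in cry1 cry2, against 30.7 and 30.5 CPM in WT (log2 fold change 2.17 ± 0.063), and in LRX2 and PRP3. Stomatal genes fell in 9 and rose in 6 of 22 cases. FMA, the factor of guard cell identity, had 5.76 and 6.35 CPM in cry1 cry2, against 15.3 and 15.03 CPM in WT (log2 fold change -1.32 ± 0.12). G protein components, the family of the gene mutated in agb1, had 2 higher and 2 lower of 16, with 8 higher under library sizes alone.

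**Figure D5:**
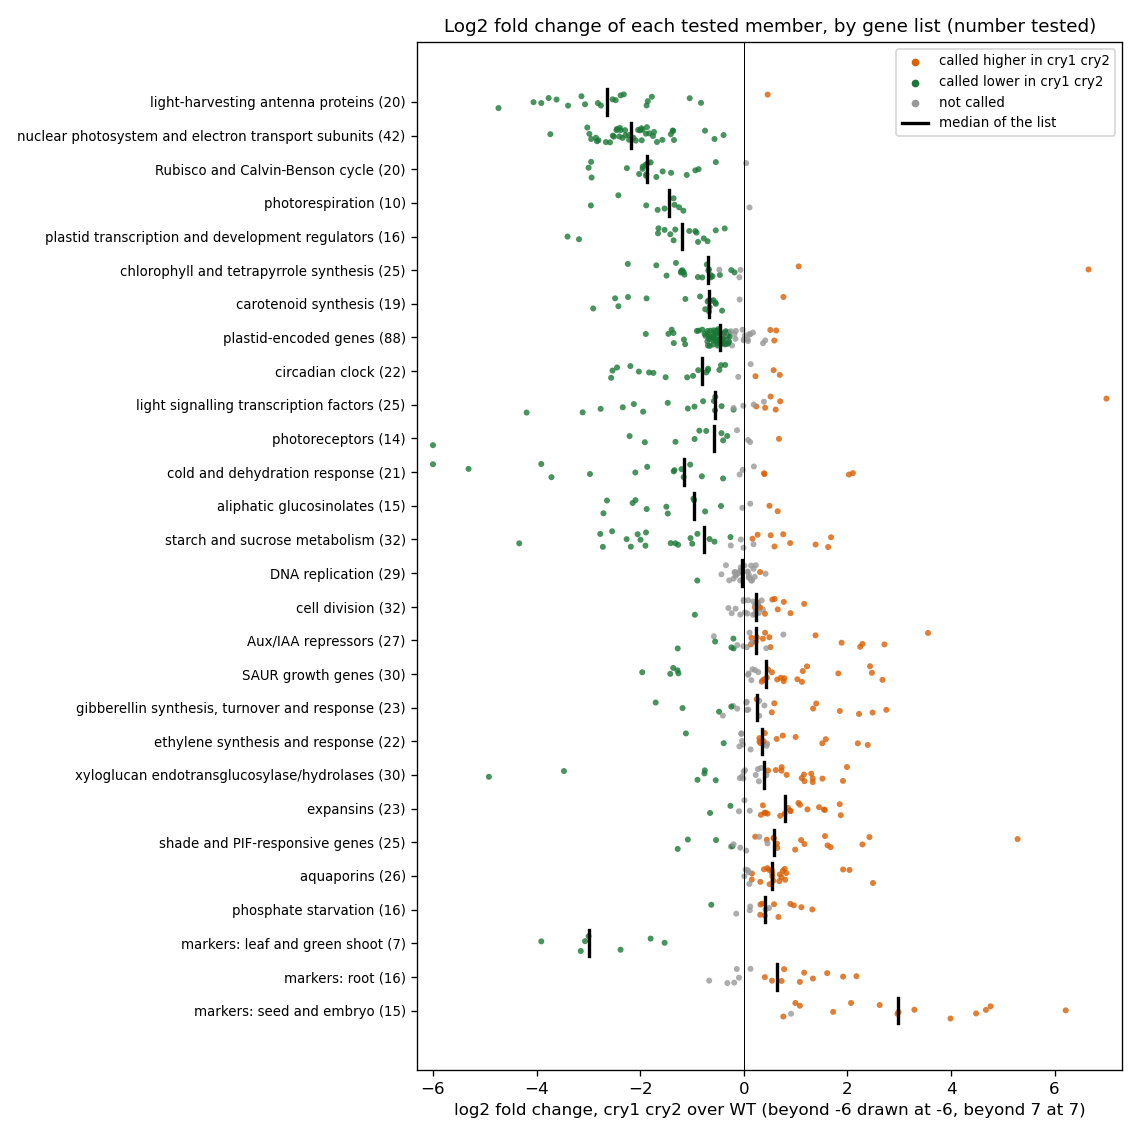
Log2 fold change of cry1 cry2 over WT for each tested member of 28 gene lists, with the number tested in brackets. Points are genes, coloured by whether edgeR called them higher, lower or neither, the black bar is the list's median, and values beyond -6 or 7 are drawn at those limits. The photosynthetic lists at the top lie almost wholly below 0, with medians of -2.65 and -2.17 for antenna and photosystem genes, and the lists of growth genes in the lower part have medians above 0.

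The hy5 mutant, which lacks a factor that acts downstream of cryptochromes, was compared with cry1 cry2 directly in the same fit. edgeR called 9046 of 20695 loci between them (43.7%), 4254 higher in cry1 cry2 (20.6%) and 4792 lower (23.2%). All 42 photosystem and electron transport subunits, 19 of 20 antenna genes and 19 of 20 genes of Rubisco and the Calvin-Benson cycle were lower in cry1 cry2 than in hy5. RCA gave 366 and 358 CPM in cry1 cry2, against 3986 and 3747 CPM in hy5 (log2 fold change over hy5 -3.42 ± 0.053, edgeR adjusted p = 2.26e-28). CRD1 gave 186 and 183 CPM in cry1 cry2, against 512 and 505 CPM in hy5 (log2 fold change over hy5 -1.46 ± 0.052, edgeR adjusted p = 3.91e-20). PORA was higher in cry1 cry2 than in hy5, with 130.1 and 121 CPM in cry1 cry2, against 2.87 and 2.43 CPM in hy5 (log2 fold change over hy5 5.57 ± 0.11, edgeR adjusted p = 2.06e-26). At CCA1 the pair also differed, with 12.9 and 13.9 CPM in cry1 cry2, against 73.1 and 61.7 CPM in hy5 (log2 fold change over hy5 -2.32 ± 0.086, edgeR adjusted p = 1.08e-19). Of 29 DNA replication genes 22 were higher in cry1 cry2 than in hy5. The growth lists were divided. Of 30 SAUR genes 4 were higher and 14 lower in cry1 cry2 than in hy5. Expansins had 11 higher and 6 lower of 23, and Aux/IAA repressors 8 and 7 of 27. F3H was not called between them, with 1.72 and 1.53 CPM in cry1 cry2, against 0.880 and 1.47 CPM in hy5 (log2 fold change over hy5 0.44 ± 0.29, edgeR adjusted p = 0.227).

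Short letter strings known from light-regulated promoters were counted in the 300-base windows of 20549 tested nuclear protein-coding genes, on both strands. The I-box GATAAG was present in 323 of 1468 genes at least 2-fold lower in cry1 cry2 and in 155 of 958 genes at least 2-fold higher (16.2%), against 14.9% of all windows. It was in 28 of 62 antenna and photosystem windows (45.2%). The G-box CACGTG was in 12.1% of the lower and 11.6% of the higher genes, against 8.8% of all windows, and in 17 of those 62 (27.4%) and 11 of 22 clock windows. ACGT, which every G-box contains, was in 55.7% of the lower and 54.4% of the higher genes, against 50.7% of all. CACATG was in 14.6% of the lower genes and in 193 of the 958 higher genes, against 13.1% of all. The evening element AAAATATCT was in 5.6% of the lower and 2.2% of the higher genes, against 3.0% of all. TGGGCC, known as a TCP factor site, was in 223 of the 1468 lower and 71 of the 958 higher genes, against 3732 of all 20549. These shares are descriptions without a test, and a match is not a binding site.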

How the data were processed

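Total RNA of whole seedlings from 4 genotypes was sequenced, with 2 libraries each. The read counts per transcript model are the authors' deposited values, and the submitters' processing notes name Bowtie2 2.2.2 and the TAIR10 build. The RPKM values beside them, named in the file headers as deposited, were not used for testing. For the counting tool, its use of strand and its treatment of reads that fit several models, nothing is given in the sources used here. Counts of 48321 models were summed to 27628 loci, 10690 of them with several models. Any reads counted under more than 1 model enter the sums more than once, which can make p-values too small. Their number is not known.

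Loci were filtered with filterByExpr (minimum count 10, minimum total 15), scaled by TMM and fitted in edgeR 4.0.16 (R 4.3.3) with all 8 libraries, so that the 4 genotypes share 1 estimate of the spread with 4 residual degrees of freedom. Each gene's spread was drawn toward that of other genes, with a median of 24.2 prior degrees of freedom. The quasi-likelihood F test was adjusted by Benjamini-Hochberg over 20695 loci. A standard error is the size of the log2 fold change over the root of its F value. Depth ranged over the 8 libraries between 15651218 and 23098347 counted reads, and intervals and floors cover counting error only. On simulated data for cry1 cry2 against WT, with 20383 genes, the same steps recovered 79% of genes changed 1.5-fold and 91% of those changed 2-fold. They also called 11 unchanged genes. The simulation changed 100 genes at each size, as many up as down, and gave all genes the same spread. In the data 51.4% of loci were called, so these shares may not carry over. RefSeq TAIR10.1 gave names for 27420 loci, coordinates and promoter windows.

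The members of the gene lists, and the lists themselves, were chosen with earlier results of these data known. Genes were named as CRY1 and CRY2, the 10 largest changes in each direction averaging 5 CPM or more without overlap between the genotypes, and up to 4 members per list with the largest change plus up to 2 that moved against it. Further relatives of these were added to describe a family whole. Symbols that matched another gene were dropped (9), as were those that matched no locus or several. For example, 10 of 16 photorespiration symbols and 25 of 31 tetrapyrrole symbols were kept, so the lists are not whole pathways. Alternatives were other scalings, DESeq2 1.42.0, other filters, 1 model per locus, no organelle loci, the 2 genotypes alone, a replicate block and leaving out each library.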

Additional observations from a re-analysis of the deposited data

How the results depend on the processing

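With library sizes alone in place of TMM factors, 8551 genes were higher and 3542 lower in cry1 cry2, and the median of all genes was 0.18 on the log2 scale. DESeq2 called 3808 higher and 4157 lower. Requiring at least 5 CPM in 2 libraries left 586 genes at least 2-fold higher. Leaving out 1 library at a time gave 4343 to 4576 genes higher, 4613 to 4717 lower, 914 to 971 at least 2-fold higher, 1443 to 1518 at least 2-fold lower and 7485 to 7717 called against hy5. Replicate numbers did not pair the samples (correlation of deviations -0.039 to 0.06 between genotypes), and the replicate block gave 5242 genes higher and 5307 lower.

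The flavonoid list's median, 0.22, was -0.78 with at least 5 CPM, -0.0066 without WT replicate 2 and 0.28 without WT replicate 1. The photoperiod list's median, -0.17, was 0.013 with library sizes alone. The nitrate list's median, -0.077, was 0.10 with library sizes alone and 0.019 without WT replicate 1. The carbon starvation list's median, -0.12, was 0.056 with library sizes alone, 0.078 without cry1 cry2 replicate 1 and -0.16 without cry1 cry2 replicate 2. The cause was not tested. The naming rule chose 264 genes, mostly called genes with the largest changes in these same libraries, which favours a stable direction. None of the 264 changed direction under these alternatives, where the fit without organelle loci covers 253 of them. The call was lost for 10 of them with DESeq2, 9 with library sizes alone, 3 with the transcript model of most reads, 1 with the replicate block and 5 to 9 when 1 library was left out. Outside the rule, GI, COR47 and BBX28 turned positive with library sizes alone, at log2 fold changes of 0.074, 0.16 and 0.17.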
